A study of Mus musculus with 47 samples.

Results

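The genes for the type I interferon ligand interferon-β (Ifnb1), for both chains of its receptor (Ifnar1 and Ifnar2) and for both chains of the receptor of the type II interferon, interferon-γ (Ifngr1 and Ifngr2), were followed across the 12 RNA-seq libraries of a study of the chromatin reader ZMYND8 in mouse macrophages. These 5 genes were chosen by gene symbol from tables of 51912 genes for bone-marrow-derived macrophages (BMDMs) and of 12771 to 23772 genes for lines labelled Raw264.7, and all 5 were listed in every table. The other 35 of the 47 samples of the series were not analysed here.

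BMDMs came from C57BL/6 bone marrow differentiated for 5 days with M-CSF. WT cells were from Zmynd8 fl/fl littermates, and Zmynd8 cKO cells carried the same floxed alleles, with loxP sites around exons 6 and 7, together with 1 Lyz2-Cre allele, which is active in myeloid cells. Each genotype was left untreated (M0) or was given LPS at 100 ng/ml (M1) or IL-4 at 20 ng/ml (M2) for 6 h. Every BMDM library was made from 3 biological replicates that were mixed, so each condition is 1 library. Of the libraries labelled Raw264.7, a mouse macrophage line, 3 came from Zmynd8 KO cells: the KO alone (Zmynd8 KO), the KO given back Zmynd8 (WT Zmynd8) and the KO given a Zmynd8 carrying the D/E-A change (D/E-A). The other 3 came from p65 KO cells with LPS: the KO alone (p65 KO), the KO given back p65 (WT p65) and the KO given p65 with the K122R change (K122R). The labels give no treatment for the 3 Zmynd8 lines, the study describes WT Zmynd8 and D/E-A as given LPS, and the deposited column of WT p65 is headed only as WT with LPS. The KO lines were made with a lentiviral CRISPR vector, and neither clones nor the LPS dose of these libraries are stated. Ages of the mice are not given.

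Interferon-β is made when receptors such as TLR4 sense microbial products, and it acts on the same and on neighbouring cells through IFNAR1 and IFNAR2, which carry the kinases TYK2 and JAK1. Interferon-γ, made mostly by T and NK cells, binds IFNGR1, and IFNGR2 brings in JAK2. The type I receptor passes the signal to STAT2 and IRF9 among others, and macrophages are main responders to both ligands.

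Ifnb1 is on chromosome 4 and Ifngr1 on chromosome 10, whereas the 3 other receptor genes lie in a row on chromosome 16. In the positions of the deposited tables (mm10), Ifnb1 spans chr4:88522025-88522794 on the minus strand and Ifngr1 chr10:19591958-19610225 on the plus strand. Ifnar2 at chr16:91372783-91405589, Ifnar1 at chr16:91485087-91510523 and Ifngr2 at chr16:91547094-91564007 share the plus strand with Il10rb, the gene of the shared IL-10 receptor chain, which sits between Ifnar2 and Ifnar1. These 4 genes cover 191 kb. In the GENCODE vM21 annotation, Ifnar2 and Il10rb each overlap Gm21970, a gene on the same strand with at most 7 counts in any BMDM library, and no other gene overlaps a member.

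The ligand gene and the 4 receptor genes also differ in the sequence before their starts, which is shown here for Ifnb1 and Ifngr1, the pair with the largest changes after LPS, chosen after their values were seen. All 5 members were found in the RefSeq promoter table (GRCm38.p6). The 250 bases upstream of each start were searched on both strands for the κB-type motif GGAANTTCC, the interferon regulatory factor (IRF) motif AANNGAAA and the STAT-type motif TTCNNNGAA. Of 32851 promoters, 0.813% held the κB-type motif, 21.3% the IRF motif and 7.02% the STAT-type motif. The sequences run 5′ to 3′ on the gene's strand, from base 160 to base 61 before the start, at chr4:88522855-88522954 (minus strand) for Ifnb1 and chr10:19591789-19591888 (plus strand) for Ifngr1, with motif matches in capitals.
Ifnb1: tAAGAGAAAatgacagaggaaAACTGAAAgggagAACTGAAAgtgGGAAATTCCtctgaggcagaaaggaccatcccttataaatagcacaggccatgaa
Ifngr1: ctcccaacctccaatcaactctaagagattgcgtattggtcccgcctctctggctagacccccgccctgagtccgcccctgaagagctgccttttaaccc

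Ifnb1 held 3 IRF matches followed by 1 κB-type match, and none of the 4 overlaps another. At least 3 IRF matches were found in 0.849% of all promoters. Of the 4 receptor genes, Ifnar2 held 1 STAT-type match, TTCCTGGAA. No match to TTCNNNGAA was found in the windows of Ifnar1, Ifngr1 and Ifngr2, and other spacings between TTC and GAA were not searched. The G and C content was 39.6% for Ifnb1, against 54.0% for Ifnar2, 59.2% for Ifngr1, 65.6% for Ifnar1 and 74.0% for Ifngr2, where the median of all promoters was 52.4%. A match is a description of the letters and not a measured binding site.

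With 1 library per condition there is no spread between replicates and no test, so a gene is said to have risen or fallen where its level differed by a fold of at least 1.2 between 2 libraries, and the 95% intervals beside the folds cover the counting of reads only. Levels are estimated counts scaled to the library total (CPM) for BMDMs, where genes that averaged 10 counts or more over the pair of libraries were tested. For the lines labelled Raw264.7, they are the deposited values, which are reads divided by a size factor, and genes that averaged 1 or more were tested. Library totals were 22597408 to 28386612 counts for BMDMs and 15127110 to 21042628 reads for the other lines.

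The labels were checked first. Zmynd8 had 2284 and 1842 counts in WT and cKO M0, 1967 and 2033 in M1, and 3636 and 3944 in M2, and a count over the whole gene does not check the loss of exons 6 and 7. Zmynd8 was 121 reads in Zmynd8 KO against 485 in WT Zmynd8 and 497 in D/E-A. Rela, the gene of p65, had 765 reads in p65 KO, 1601 in WT p65 and 5850 in K122R. All 7 macrophage markers were above 0 in every library, but the 3 Zmynd8 libraries labelled Raw264.7 also held all 7 neutrophil markers, summed to 3856 to 9387 RPM (reads scaled to the library total as CPM are), among them Ly6g at 51 to 236 reads and Ngp at 23256 to 37299. In the 3 p65 libraries, 2 of these 7 markers were listed, with a sum of 0.180 to 0.264 RPM. The B cell markers summed to 102 to 147 RPM in the Zmynd8 libraries and to 5.42 to 8.17 in the p65 libraries. The 3 Zmynd8 libraries therefore go against their cell line label, and each is called here by its label only. In BMDMs the neutrophil markers summed to 2.14 to 3.90 CPM in M0 and M1 and to 311 and 434 CPM in WT and cKO M2. The 6 dendritic cell markers summed to 331 to 1521 CPM in BMDMs and to 591 to 1412 RPM in the other lines, most of it Bst2. These sums therefore follow mainly that gene and do not measure dendritic cell content. The T and NK cell markers summed to at most 0.727 CPM in BMDMs and the B cell markers to at most 0.555.

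Per length, in deposited TPM (transcripts scaled by length and library total), the receptor genes were all well expressed in BMDMs and their order changed with treatment. Ifnar2 was the highest member in all 6 libraries, at 121 to 224 TPM. Ifngr1 was 76.85 TPM in WT M0 and 62.1 in cKO M0, the second highest level, and 15.4 and 19.5 TPM in M1, the lowest receptor gene. Ifnar1, at 76.25 TPM in WT M0, was level with Ifngr1 there, and Ifngr2 was the lowest receptor gene in M0 at 53.9 and 44.3 TPM. In M2 the order was Ifnar2, Ifnar1, Ifngr2 and Ifngr1 in both genotypes, but Ifngr2 at 154 TPM and Ifngr1 at 151 TPM in WT lay close together. The plot of TPM by library shows these levels. The files give no length for the lines labelled Raw264.7, so genes are not ranked there.

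**Figure D1:**
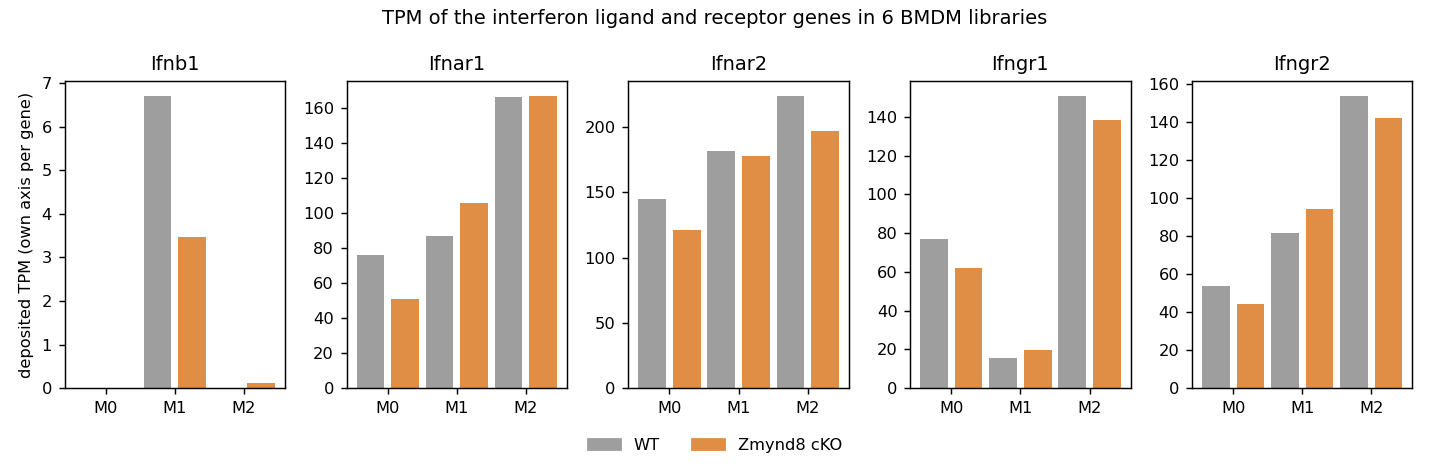
Deposited TPM of Ifnb1, Ifnar1, Ifnar2, Ifngr1 and Ifngr2 in each of the 6 BMDM libraries, untreated (M0), with LPS (M1) and with IL-4 (M2); each bar is 1 library, without error, and each gene has its own axis from 0. Ifnb1 reached 6.71 TPM in WT M1 and 3.47 in cKO M1, and Ifngr1 is lowest in both M1 libraries.

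LPS treatment set the members apart: the ligand gene appeared, Ifngr1 fell and the other receptor genes held their level or rose. Ifnb1 had 0 counts in WT M0 and in cKO M0, where a floor of 3 counts per library is 0.114 and 0.133 CPM and the upper 95% counting limits are 0.141 and 0.163 CPM. It had 61 counts in WT M1 (2.45 CPM, interval 1.87 to 3.15) and 28 in cKO M1 (1.2 CPM, interval 0.794 to 1.73). With M1 at its measured count and M0 at that floor, these levels were at least 21.4-fold and at least 9.0-fold higher, and with the counting error of both libraries the lower 95% limits of the folds were 16.9 and 6.85. Both M1 libraries were above both M0 libraries. In TPM, which accounts for length, Ifnb1 in WT M1 (6.71) was below the lowest receptor gene there, Ifngr1 (15.4).

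Ifngr1 had 2583 counts (98.6 CPM) in WT M0 and 511 (20.5 CPM) in WT M1, 4.80-fold lower (4.37 to 5.29). In cKO it had 2197 counts (97.2 CPM) in M0 and 551 (23.5 CPM) in M1, 4.13-fold lower (3.76 to 4.55). Both M1 libraries lay below both M0 libraries. In these bulk libraries, fewer cells that express a gene and less of its RNA per cell cannot be told apart.

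Its partner Ifngr2 went the other way, from 116 to 183 CPM in WT, 1.58-fold higher (1.5 to 1.65), and from 114 to 195 CPM in cKO, 1.71-fold higher (1.63 to 1.79). The ratio of Ifngr1 to Ifngr2 in TPM was 1.43 and 1.40 in WT and cKO M0, and 0.189 and 0.207 in M1. The ligand-binding chain gene was thus the higher of the pair before LPS and the lower after it.

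Among the type I receptor genes, Ifnar2 went from 142 to 185 CPM in WT, 1.3-fold higher (1.25 to 1.36), and from 135 to 185 CPM in cKO, 1.37-fold higher (1.31 to 1.44). Ifnar1 was 189 CPM in WT M0 and 218 in WT M1, a fold of 1.15 (1.11 to 1.2) that missed the threshold, and rose from 151 to 255 CPM in cKO, 1.69-fold (1.62 to 1.76). The log2 fold change of Ifnar1 with LPS was larger by 0.55 (0.47 to 0.63) in cKO than in WT, and that of Ifnar2 differed by 0.08 (-0.02 to 0.17). For Ifngr1 and Ifngr2 this difference was 0.22 (0.02 to 0.41) and 0.11 (0.02 to 0.21). Both intervals include no difference once the shifts of median ratio or TMM scaling in each genotype are applied. With deposited TPM, the log2 changes in WT and cKO were 0.19 and 1.04 for Ifnar1 and 0.33 and 0.55 for Ifnar2. They were -2.25 and -1.62 for Ifngr1 and 0.59 and 1.07 for Ifngr2, so the genotypes lay further apart for each gene. Among all genes called with TPM, 24.5% were higher in WT and 37.5% in cKO.

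In WT, 2 of the 4 receptor genes rose and 1 fell with LPS, where 21.7% of 12813 genes rose and 63% fell. In cKO, 3 rose and 1 fell, where 25.0% of 12666 genes rose and 60.5% fell. Ifnb1 is left out of these counts, since with 0 counts in M0 it could only be called higher once tested. The share of genes that fell depends on the scaling: the median log2 change of all genes was -0.58 in WT and -0.55 in cKO, and median ratio and TMM scaling moved all values up by 0.71 and 0.62 in WT and by 0.66 and 0.56 in cKO. Among the genes called, 25.6% were higher in WT with library totals, 50.3% with median ratios and 46.7% with TMM, and in cKO these shares were 29.3%, 50.6% and 46.7%. Relative to the median of all genes, the log2 change in WT was 0.79 for Ifnar1, 0.96 for Ifnar2, 1.23 for Ifngr2 and -1.63 for Ifngr1. The direction of the 5 members was the same under the 3 scalings, and Ifnar1 in WT passed the threshold with median ratios (0.91) and TMM (0.82). Il10rb, the neighbour on chromosome 16, was 0.855-fold of M0 in WT and 0.961-fold in cKO, which is 0.36 and 0.49 above the median of all genes on the log2 scale, so its sign turns with the scaling.

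**Figure D2:**
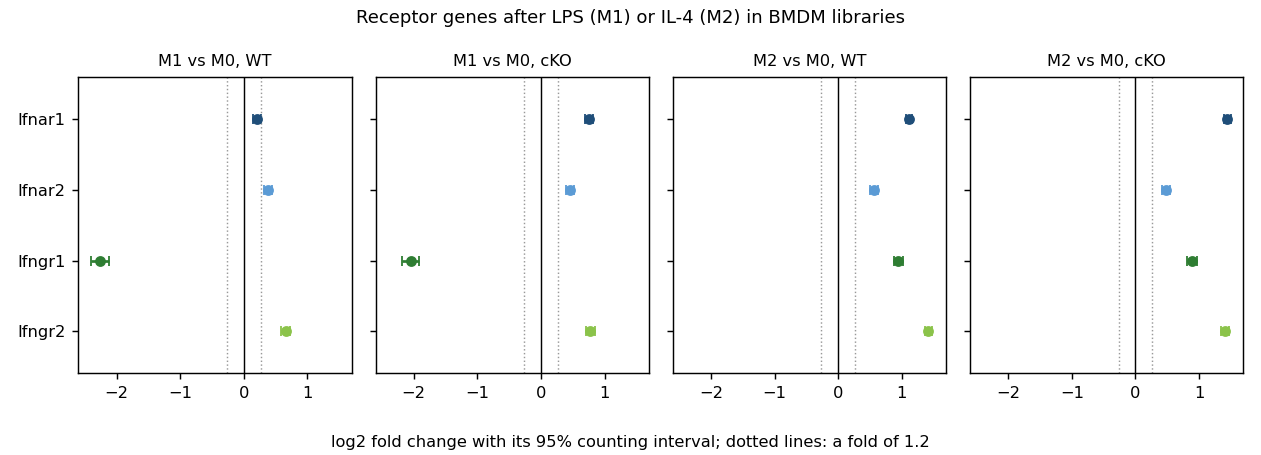
Log2 fold change (x axis) of the 4 receptor genes after LPS (M1) or IL-4 (M2) against M0 in WT and Zmynd8 cKO BMDMs; points are the ratio of 2 libraries, bars are 95% counting intervals, and dotted lines mark a fold of 1.2. Ifngr1 lies at -2.26 and -2.05 in M1, whereas every point in M2 lies above 0.

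The genes upstream and downstream of these receptors are read beside the shares of all genes just given, most of which were called with LPS. Of 21 genes for Ifnb1 induction, 10 rose and 5 fell in WT and 12 rose and 5 fell in cKO. Irf7, a regulator of interferon genes, was highest at log2 changes of 3.09 and 4.63, and Mavs, the adaptor of RNA sensing, lowest at -1.54 and -1.33. Tlr4, the LPS receptor, was at -1.10 and -0.52 and Irf3 at -0.72 and -1.11. Relative to the median of all genes, Tlr4 was at -0.51 and 0.03 and Irf3 at -0.13 and -0.57, so the direction of Tlr4 in cKO turns with the scaling. Ticam1, the TLR4 adaptor on the route to interferon-β, was at 0.21 and 0.05. Of the 6 receptor signalling genes, 4 rose in WT and 5 in cKO, and none fell. Jak2 rose by 3.04 and 4.26, Tyk2 by 1.71 and 2.20 and Stat2 by 1.98 and 3.44, whereas Irf9 was at 0.00 and 0.23. Jak1 was at 0.23 in WT and rose by 0.90 in cKO.

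Of 7 negative regulators, 5 rose and 1 fell in WT and 6 rose in cKO, with Socs3 highest at 7.59 and 8.10. Socs1, which blocks JAK kinases, rose by 5.65 and 5.61, and Usp18, which acts at IFNAR2, by 3.48 and 4.39. All 14 type I response genes and all 9 type II response genes rose in both genotypes, for example Isg15 by 3.41 and 4.90, Ifit1 by 3.81 and 5.87 and Cxcl9 by 8.85 and 9.70. Cell type markers moved with LPS as well. Both dendritic cell markers tested rose (Bst2 by 1.48 and 1.82, Tcf4 by 0.50 and 1.76), and of 7 macrophage markers 3 rose and 3 fell in WT and 4 rose and 2 fell in cKO, with Mertk at 1.58 and 2.81 and Csf1r at -1.55 in both. Their part in these values was not tested. The gene of the type II ligand itself, Ifng, had 0 counts in both M1 libraries, and the T and NK cell markers summed to 0.281 CPM in WT M1 and 0 in cKO M1. Of the 20 interferon ligand genes other than Ifnb1, 1 had any count in each M1 library, with at most 3 counts. Of the 4 receptor chains of type III interferon and the IL-10 family, 2 were tested, and Il10ra, the IL-10-binding chain, rose by 1.64 and 2.26.

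IL-4 raised all 4 receptor genes in both genotypes and left Ifnb1 at 0 counts in WT and 1 count in cKO. Ifngr2 went from 116 to 310 CPM in WT, 2.67-fold higher (2.56 to 2.79), and from 114 to 304 CPM in cKO, 2.65-fold higher (2.54 to 2.78). Ifnar1 rose to 408 CPM in WT, 2.16-fold (2.09 to 2.23), and to 412 CPM in cKO, 2.73-fold (2.62 to 2.83). Ifngr1 rose to 190 CPM in WT, 1.93-fold (1.84 to 2.02), and to 180 CPM in cKO, 1.85-fold (1.76 to 1.95). Ifnar2 rose least, to 210 CPM in WT, 1.47-fold (1.41 to 1.54), and to 188 CPM in cKO, 1.39-fold (1.33 to 1.46). Both M2 libraries were above both M0 libraries for all 4 genes, and Ifngr1 thus moved in opposite directions with IL-4 and LPS.

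The 4 receptor genes rose where 41.3% of 13090 genes rose and 23.1% fell in WT, and where 44.7% of 12966 rose and 26.2% fell in cKO. Their median log2 change was 1.02 in WT and 1.14 in cKO, against 0.15 and 0.17 for all genes. Median ratio and TMM scaling lowered all values by 0.14 to 0.23, and the share of higher genes among those called went from 64.1% to 50.5% and 52.9% in WT and from 63.1% to 51.5% and 48.7% in cKO. With deposited TPM this share was 76.6% in cKO. Relative to the median of all genes, Ifngr2 was at 1.27 and 1.23, Ifnar1 at 0.96 and 1.27, Ifngr1 at 0.79 and 0.71 and Ifnar2 at 0.41 and 0.31 in WT and cKO. Under TMM, Ifnar2 in cKO was at 0.25 and missed the threshold.

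The difference between genotypes in the log2 fold change with IL-4 was 0.34 (0.26 to 0.41) for Ifnar1, larger in cKO. It was -0.08 (-0.17 to 0.01) for Ifnar2, -0.06 (-0.16 to 0.04) for Ifngr1 and -0.01 (-0.10 to 0.08) for Ifngr2. The sign of these last differences turned with deposited TPM. The log2 changes in WT and cKO were then 0.626 and 0.7 for Ifnar2 and 0.965 and 1.142 for Ifngr1. They were 1.497 and 1.66 for Ifngr2 and 1.115 and 1.695 for Ifnar1, so each gene rose more in cKO. The sum of the neutrophil markers rose with IL-4 as given above. Of 7 macrophage markers 3 rose and 2 fell in WT and 5 rose and 2 fell in cKO (Fcgr1 at -2.62 and -1.55), and of the dendritic cell markers 2 of 4 tested rose in WT and 5 of 5 in cKO. The part of these markers in the changes was not tested. The titles of the M2 libraries also carry sample numbers apart from those of M0 and M1, which cannot be told apart from the treatment.

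In contrast to the receptors, the response genes took different directions with IL-4 in the 2 genotypes, which share no library and differed already in M0. The 14 type I response genes summed to 4458 CPM in WT M0 and 1156 in cKO M0, and to 1219 and 2526 CPM in M2. All 14 type I response genes fell in WT, with a median of -1.71, and 13 of 14 rose in cKO, with a median of 1.11. Of the 9 type II response genes, 3 rose and 4 fell in WT, and 8 rose and 1 fell in cKO. Stat2 fell by 0.79 in WT and rose by 1.3 in cKO. Jak2 rose in both, by 2.83 and 3.99, and Socs1 by 3.20 and 3.85. Of the 6 receptor signalling genes, 2 rose and 2 fell in WT and 6 rose in cKO, of 7 negative regulators 5 rose and 1 fell in WT and 7 rose in cKO, and of 21 induction genes 9 rose and 4 fell in WT and 13 rose and 2 fell in cKO. The difference between the genotypes in these lists was not tested.

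**Figure D3:**
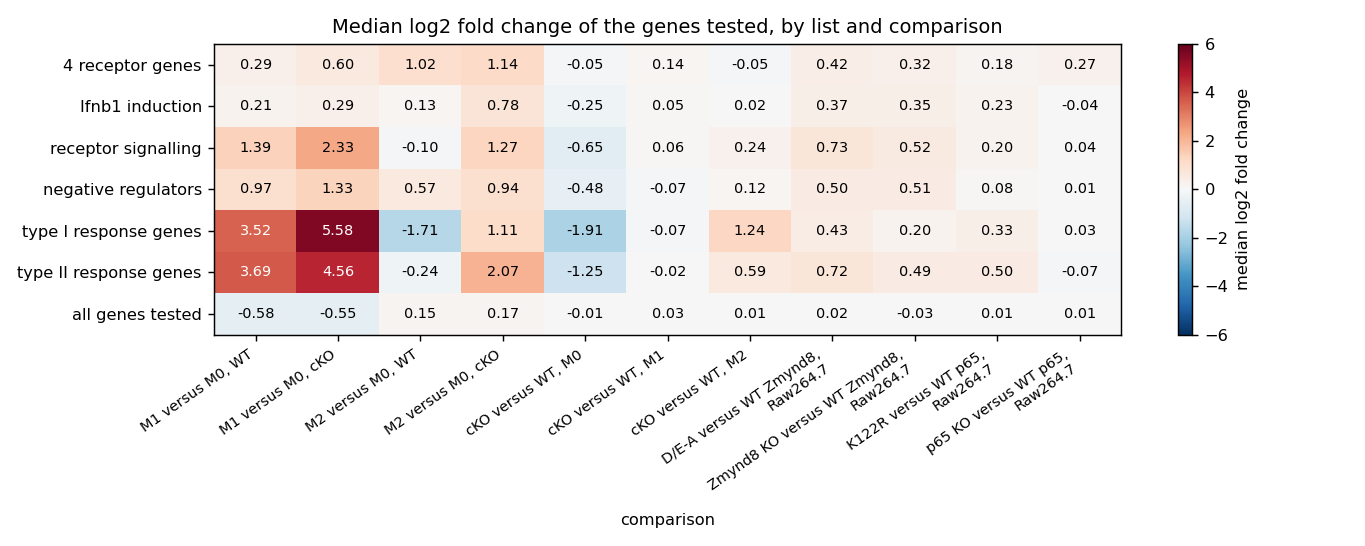
Median log2 fold change (colour and printed value) of the genes tested in each list (rows) in each of the 11 comparisons of 2 libraries (columns), beside all genes tested. The type I response genes stand at -1.71 in WT and 1.11 in cKO for M2 against M0, while the 4 receptor genes stand at 1.02 and 1.14; the type I response genes of cKO start lower, at -1.91 against WT in M0.

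Between the genotypes, 1 receptor gene passed the threshold in M0 and none in M1 and M2, on the CPM scale. In M0, Ifnar1 was 189 CPM in WT and 151 in cKO, 1.25-fold lower (1.2 to 1.31), and the other 3 receptor genes were 0.949-fold to 0.987-fold of WT. Thus 1 of the 4 members tested fell and 0 rose, where 29.0% of 12463 genes fell and 25.0% rose. With deposited TPM, Ifnar1 was at -0.57, Ifngr1 (-0.30) and Ifngr2 (-0.28) also passed the threshold, and the share of higher genes among all called went from 46.3% to 22.0%. The downstream lists stood lower in the cKO M0 library: all 14 type I response genes fell, with a median of -1.91, as did all 9 type II response genes, with a median of -1.25. All 6 receptor signalling genes fell, from Irf9 at -0.39 and Tyk2 at -0.40 to Stat2 at -1.51, and Irf7 fell by 1.80 on the log2 scale. Of 7 negative regulators 4 fell, and of 21 induction genes 5 rose and 9 fell. Ifnb1 and Ifng were at 0 counts in both M0 libraries. Cell type markers moved here too: both dendritic cell markers tested fell (Bst2 at -0.75, Tcf4 at -1.13), and of 7 macrophage markers 1 rose and 4 fell, Mertk lowest at -1.27, with a sum of 7436 CPM in WT and 7411 in cKO. Their part in these values was not tested.

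In M1, Ifnb1 was 2.05-fold lower in cKO (1.29 to 3.33), from 28 against 61 counts, whereas the 4 receptor genes were 1.00-fold to 1.17-fold of WT. Of the 5 members, 1 fell and 0 rose, where 13.3% of 12386 genes fell and 22.6% rose. Ifnar1 at 1.17-fold (1.13 to 1.21) and Ifngr1 at 1.15-fold (1.01 to 1.3) were under the threshold, and both passed it with deposited TPM (0.28 and 0.32). Median ratio and TMM scaling move all values here by -0.04 and -0.03, after which the interval of Ifngr1 includes no change. Of the lists, 12 of 14 type I and 8 of 9 type II response genes did not pass the threshold. Isg15 (-0.27) and Usp18 (-0.33) fell and Jak2 (0.34) rose. Of the 6 receptor signalling genes 1 rose, of 7 negative regulators 1 rose and 1 fell, and of 21 induction genes 2 rose and 2 fell, with Rela at 0.11 and Nfkb1, its partner gene, at 0.50. Of 7 macrophage markers 2 rose (Itgam highest at 0.66) and Spi1 fell (-0.44), and of 3 dendritic cell markers tested Bst2 fell (-0.41), and their part was not tested.

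In M2, 0 of the 4 members tested rose or fell, where 17.3% of 13245 genes rose and 13.4% fell, and the receptor genes were 0.897-fold (Ifnar2) to 1.01-fold (Ifnar1) of WT. The split of all calls was 56.5% higher, and 44.5% with TMM. All 14 type I response genes rose, led by Ifit1 at 1.73, and 6 of 9 type II response genes rose and 2 fell. Stat2 rose by 0.59, Socs1 by 0.52 and Usp18 by 0.83, within 3 risers of 6 signalling genes and 3 of 7 negative regulators, and of 21 induction genes 5 rose and 3 fell. The neutrophil markers rose here too, in 5 of the 6 tested, of 7 macrophage markers 1 rose and 2 fell, and of 5 dendritic cell markers tested 1 rose and 1 fell, and their part was not tested.

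**Figure D4:**
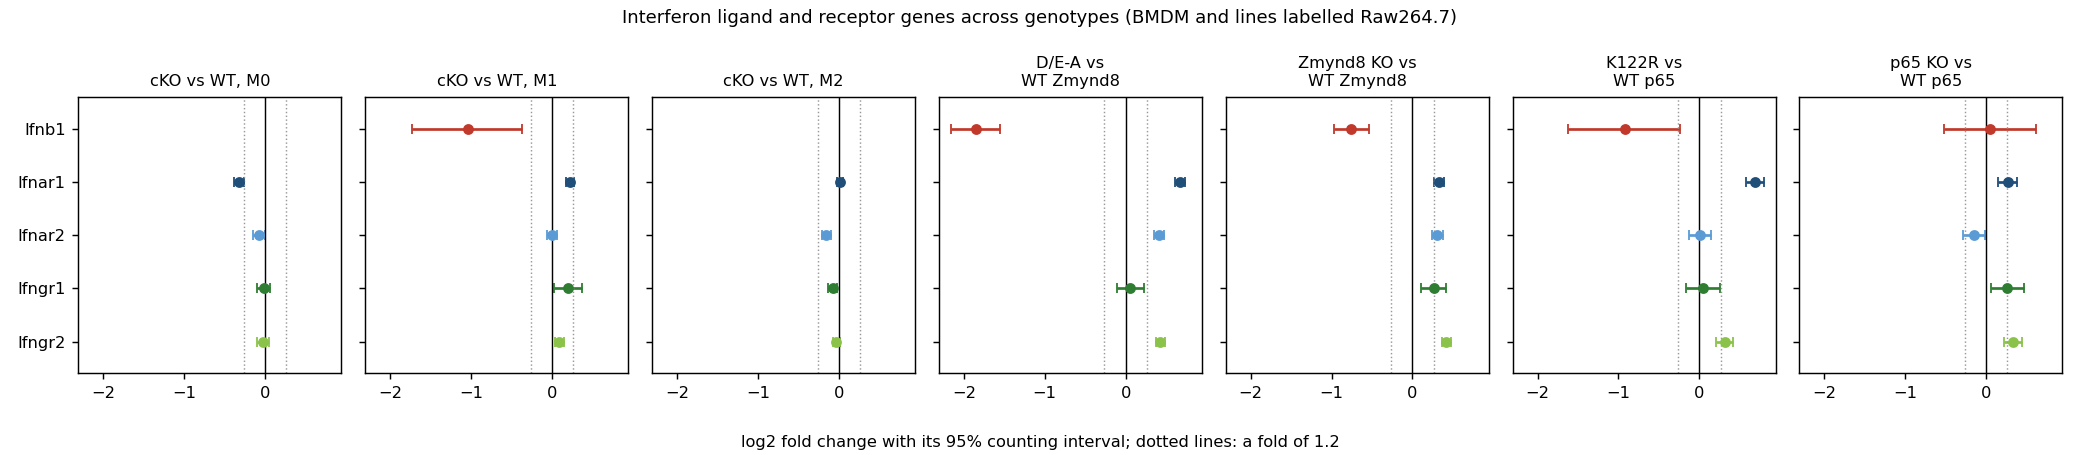
Log2 fold change (x axis, the same in all panels) of the 5 members between genotypes, in BMDMs at M0, M1 and M2 and in the lines labelled Raw264.7; points are ratios of 2 libraries, bars are 95% counting intervals, dotted lines mark a fold of 1.2, and Ifnb1 is left out where a library had 3 reads or fewer. Ifnb1 lies below 0 in 4 of the 5 panels that show it.

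Ifnb1 was also lower in the libraries labelled D/E-A and Zmynd8 KO than in that labelled WT Zmynd8. Its deposited value was 119 in D/E-A (116 reads) and 429 in WT Zmynd8 (439 reads), 3.61-fold lower (2.94 to 4.47). In the table of Zmynd8 KO it was 271 (283 reads) against 458 in WT Zmynd8, 1.69-fold lower (1.45 to 1.97). Both comparisons use the same WT Zmynd8 library, which had the highest level, and the tables were scaled separately.

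Of the 4 receptor genes, 3 rose in each of these libraries and Ifngr1 did not pass the threshold. In D/E-A, Ifnar1 rose 1.60-fold (1.53 to 1.67), from 3358 to 5357, Ifngr2 rose 1.34-fold (1.29 to 1.40), from 4416 to 5938, and Ifnar2 rose 1.33-fold (1.27 to 1.39), from 3351 to 4464. Ifngr1, at 571 and 595, was at 1.04-fold (0.928 to 1.17). In Zmynd8 KO, Ifngr2 rose 1.34-fold (1.29 to 1.39), Ifnar1 1.25-fold (1.2 to 1.31) and Ifnar2 1.24-fold (1.18 to 1.29), and Ifngr1, at 1.2-fold (1.08 to 1.34), was just under the threshold. With the totals of the recovered reads, Ifnar1 (0.25) and Ifnar2 (0.24) missed the threshold in Zmynd8 KO.

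In D/E-A, 3 of the 5 members rose and 1 fell, where 36.7% of 12771 genes rose and 35.9% fell. In Zmynd8 KO, 3 rose and 1 fell, where 33.8% of 21302 genes rose and 36.5% fell. When the counting interval also had to leave out no change, 4291 of these genes rose and 3475 fell. The summed neutrophil markers were 3856 RPM in D/E-A and 6265 in Zmynd8 KO, against 9387 and 9360 in WT Zmynd8 in the same tables, and all 7 fell in D/E-A and 4 in Zmynd8 KO. The summed macrophage markers were 4498 and 3836 against 2917 and 2909, and 6 of 7 rose in D/E-A and all 7 in Zmynd8 KO. Of 6 dendritic cell markers 4 fell and 0 rose in D/E-A and 2 rose and 2 fell in Zmynd8 KO (Bst2 at -0.89 and -0.29), and of 4 B cell markers 2 rose in D/E-A and 1 rose and 3 fell in Zmynd8 KO. These markers moved with the members, and their part was not tested.

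The same 2 comparisons showed higher receptor signalling genes, 5 of 6 in each, with Jak2 at 1.02 and 0.56, Jak1 at 0.89 and 0.55 and Tyk2 at 0.62 and 0.58. Of 21 induction genes, 14 and 11 rose and 1 fell in each, which was Irf3, at -0.85 and -0.64. Of 14 type I response genes, 9 rose and 3 fell in D/E-A, Isg15 at -0.43 among them, and 6 rose in Zmynd8 KO. Of 9 type II response genes, 7 rose and 2 fell in D/E-A, and 6 rose and 1 fell in Zmynd8 KO, with Cd74, a chaperone of antigen presentation, lowest at -0.90 and -0.51. Of 7 negative regulators, 4 and 5 rose, with Socs1 at 1.04 and 0.96 and Usp18 at 0.50 and 0.60. Ifng, at 0 in BMDMs but for 1 count, had 34 reads in D/E-A, 31 in Zmynd8 KO and 46 in WT Zmynd8. The T and NK cell markers summed to 8.25, 3.37 and 12.0 RPM in these libraries, against at most 0.132 in the p65 libraries, in whose tables Ifng was not listed.

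In p65 lines, Ifnb1 was at a low level in all 3 libraries. It had 28 reads in K122R and 55 in WT p65, 1.89-fold lower (1.18 to 3.10), and 55 reads in p65 KO, 1.03-fold of WT p65 (0.699 to 1.53). The WT p65 library, which both comparisons share, and p65 KO thus did not differ beyond counting error at this depth.

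Ifnar1 rose most of the receptor genes in K122R, from 1144 to 1844, 1.61-fold (1.5 to 1.74). In p65 KO it went from 1146 to 1379, 1.2-fold higher (1.11 to 1.3). Ifngr2 rose 1.24-fold (1.15 to 1.34) in K122R and 1.26-fold (1.17 to 1.36) in p65 KO. Ifngr1 was at 1.03-fold (0.895 to 1.19) in K122R and rose 1.2-fold (1.05 to 1.38) in p65 KO, just over the threshold. Ifnar2 was at 1.00-fold (0.916 to 1.10) and 0.900-fold (0.819 to 0.990). The ratio of Ifnar1 to Ifnar2 reads was 1.99 in K122R, 1.66 in p65 KO and 1.24 in WT p65.

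In K122R, 2 members rose and 1 fell, where 30.8% of 19670 genes rose and 32.5% fell. When the counting interval also had to leave out no change, 2842 genes rose and 3095 fell. With the totals of recovered reads, every member moved down, for example Ifnar1 from 0.69 to 0.54. Ifngr2 went from 0.31 to 0.17 and missed the threshold. The share of higher genes among those called went from 48.6% to 33.7%. In p65 KO, 3 members rose and 0 fell, where 26.3% of 19879 genes rose and 25.7% fell. When the counting interval also had to leave out no change, 1731 genes rose and 1813 fell. Il10rb rose 1.42-fold (1.28 to 1.57) in K122R and was 1.01-fold in p65 KO.

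Of the lists in K122R, 10 of 21 induction genes rose and 2 fell. The highest was Rela itself at 1.92, although by the labels p65 was given back in both libraries. It was followed in the named genes by Tlr4 at 1.33 and Irf7 at 0.63. For every gene in this comparison, the K122R change and the higher Rela level cannot be told apart. Of 6 receptor signalling genes, 2 rose and 1 fell, with Jak2 (0.51) and Stat2 (0.29) higher. Of 14 type I response genes 9 rose and of 9 type II response genes 6 rose, and none of either list fell. Of the dendritic cell markers 2 rose and 1 fell (Bst2 at 0.46 among the higher), and of 7 macrophage markers 1 rose (Itgam at 0.65) and 2 fell (Adgre1 lowest at -0.29), and their part was not tested. In p65 KO, 0 of the 6 signalling genes and 0 of 14 type I response genes rose, 1 type I gene fell, which was Rsad2 at -0.50, and of 9 type II response genes 3 rose and 1 fell. Of 21 induction genes 4 rose and 6 fell there, Rela lowest at -1.02. Of 7 negative regulators 1 rose in each comparison, Socs3 at 0.50 and Socs1 at 0.33. In p65 KO, 2 dendritic cell markers rose and 2 fell and 1 macrophage marker rose and 1 fell, and their part was not tested.

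Across the 6 BMDM libraries, the genes whose pattern lay closest to each member were named by the root mean square (RMS) difference of log2(CPM + 1), centred on each gene's mean. Ifnar1 and Ifngr2, neighbours on chromosome 16, differed from each other by 0.134, against 0.360 between Ifnar1 and Ifnar2 and 1.23 between Ifngr1 and Ifngr2. Among 10905 genes, the closest were Rbbp6 (0.079), Prpf38b (0.086) and Camta2 (0.091) for Ifnar1, and 9330159M07Rik (0.103), Atg9a (0.107) and Mif4gd (0.110) for Ifngr2. For Ifnar2 they were Urgcp (0.056), Bloc1s6 (0.070) and Fbxo18 (0.076), and for Ifngr1 they were Cux1 (0.071), Actn1 (0.098) and D030028A08Rik (0.101). For Ifnb1, among 13074 genes, they were Vnn3 (0.058), Apobec4 (0.089) and Gm15990 (0.090). Ifnb1 had more than 1 count only in the M1 libraries, so these distances rest on low counts and on the pseudocount. Over the 6 libraries, Ifngr1 spanned 3.15 on this scale and Ifnar2 0.63, the narrowest range of the members. Ifnb1 spanned 1.79, which depends on the pseudocount since 3 of its libraries had 0 counts.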

How the data were processed

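For BMDMs, the authors deposited estimated counts and TPM per gene. Reads were aligned with TopHat to mm10 per the study's methods, and the labels also name Bowtie 0.12.2 and CASAVA 1.4. Estimated counts were rounded and divided by library totals. Rows that name no gene (431 each in the M0 and M1 tables, 2 in M2) hold no values and were left out. For the lines labelled Raw264.7, the deposited values are signal, 1 for each gene in each library as the authors scaled it within a table, and the reads behind them were recovered from their step: all values were whole within 0.05, except 2 in Zmynd8 KO. The D/E-A table lists fewer genes, so the reads of its WT Zmynd8 library came from the Zmynd8 KO table. Neither the deposited fold changes and p-values nor 2 columns of values without a sample label were used.

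With 1 library per condition, 11 comparisons of 2 libraries were made on log2(CPM + 1) or log2(value + 1), without a test, and a call needed a fold of at least 1.2. Printed folds of members carry no pseudocount, log2 values of lists do. Intervals are 95% Clopper-Pearson intervals, and genes with 3 reads or fewer in a library got counts in place of folds. The fold step was tested on simulated counts. Named genes were the members, Il10rb, the targeted genes, 16 fixed pathway genes and the highest and lowest gene of a list at 100 counts or more on average, and the 3 genes closest to each member (means of at least 50 counts, 10 for Ifnb1). Some results are not reported here. The members and lists were chosen with earlier results of these data known. Python 3.11.15, pandas 2.3.3, scipy 1.17.1 and edgeR 4.0.16 (for TMM only) were used. Alternatives were other pseudocounts, filters, folds, scalings, TPM and an exact binomial test on recovered reads.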

Additional observations from a re-analysis of the deposited data

Results flagged for a closer look

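For 2 receptor genes, the difference between Zmynd8 cKO and WT BMDMs pointed in opposite directions in different states, with counting intervals that leave out no change. Ifnar1 had a log2 fold change of -0.32 in M0 and 0.22 in M1. Ifngr1 had 0.19 in M1 and -0.076 in M2. Median ratio and TMM scaling move all M1 values by -0.04 and -0.03, after which the interval of Ifngr1 in M1 includes no change. The signs of Ifngr1 in M1 and M2 stayed opposite, at 0.15 and -0.087 with median ratios and 0.16 and -0.14 with TMM. With deposited TPM they were 0.32 and -0.13. Of the 4 values on library totals, only Ifnar1 in M0 passed a fold of 1.2. With 1 library per condition, the difference between states was not tested against replicate spread.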

How the results depend on the processing

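Of 365 member fold changes recomputed under the alternative settings, 328 stayed on their side of the threshold, 31 lost the call (24 of them at a fold of 2) and 6 gained it, and none turned direction after a call. Neither a smaller pseudocount (0.1), nor keeping genes of low value, nor a fold of 1.2 with a counting interval that leaves out no change moved a member's call.

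The number of genes called at a fold of at least 2 was 5548 for M1 against M0 in WT and 5825 in cKO, 2124 for M2 against M0 in WT and 2740 in cKO, 477, 112 and 261 for cKO against WT in M0, M1 and M2, 2345 in D/E-A, 5460 in Zmynd8 KO, 3926 in K122R and 3149 in p65 KO. At a fold of 1.2 these counts were 10861, 10829, 8435, 9197, 6729, 4449, 4065, 9271, 14978, 12453 and 10325. With the counting interval required as well, 7766 were called in Zmynd8 KO, 5937 in K122R and 3544 in p65 KO. The exact binomial test on recovered reads called 6885, 5960 and 2711 there, and 7878 in D/E-A.

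No paired analysis was possible because the labels give no replicate numbers that libraries share and each condition is 1 library. A fit of genotype and state together over the BMDM libraries was not run. Depth limits Ifnb1, which had 61 counts or fewer in BMDMs, and the spread between cultures is not measured for any value.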
